A study of Mus musculus with 12 samples.

Results

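Crtam, Cd226, Tigit and Cd96 encode 4 immunoglobulin-superfamily receptors of cytotoxic lymphocytes that bind nectins and nectin-like proteins, and they are described here as 4 of the 50674 genes in an RNA-sequencing table of mouse natural killer (NK) cells. The genes were taken by symbol, and the set was formed partly because Crtam was far higher after stimulation. Differences between stimulated and unstimulated cells are therefore given as description without a test, and tests are given for the genotype comparisons, which use the same libraries. The cells came from spleen and had been expanded with IL-2, and all samples carry the strain label C57BL/6. Of 4 groups with 3 biological replicates each, the first 2 were Mirc11-/- cells after 6 h of stimulation through NKG2D, an activating receptor, and Mirc11-/- cells left untreated. The others were wild-type cells after 6 h of NKG2D stimulation and untreated wild-type cells. The Mirc11 cluster holds the genes Mir23a, Mir27a and Mir24-2. The labels give no age, and no count of mice per library.

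Receptors of this family read adhesion molecules on neighbouring cells. Crtam (class-I MHC-restricted T cell-associated molecule) is induced on activated NK and CD8 T cells and binds the nectin-like protein Cadm1. Cd226 is an activating receptor and Tigit an inhibitory one, and both bind Pvr and Nectin2. Cd96 binds Pvr as well, and in the mouse it has been described as a brake on NK cell cytokine production. Afadin, encoded by Afdn, ties nectins to actin inside the cell.

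The mature microRNAs made from the deleted cluster, which were not measured in these libraries, are shown because the genotypes differ in that cluster. They are RefSeq sequences (GRCm38.p6, chromosome 8, plus strand, bases 84208563 to 84208583, 84208727 to 84208747 and 84208875 to 84208896), written 5′ to 3′ with the seed, bases 2 to 8, in capitals.
mmu-miR-23a-3p: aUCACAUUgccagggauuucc
mmu-miR-27a-3p: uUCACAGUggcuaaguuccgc
mmu-miR-24-3p: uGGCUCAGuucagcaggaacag

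Among the 4 receptors, Crtam had the most matches to these seeds in its longest annotated 3′ untranslated region (GENCODE vM21, 3822 bases). The letters searched for on the transcript strand, opposite bases 2 to 8, were AATGTGA for miR-23a, while for miR-27a they were ACTGTGA and for miR-24 they were CTGAGCC. The matches are shown in capitals with 10 flanking bases on each side, named by microRNA and by position counted from 1 after the stop codon.
miR-27a at 66: gatcgtaagtACTGTGAcatgaaaaaa
miR-24 at 3147: gagaaaagccCTGAGCCagagttgtca
miR-27a at 3317: gaggaagtgaACTGTGAatcctgcagt

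The first of these was present in 4 of 4 coding Crtam transcripts with an annotated 3′ region, and the others in 3 of 4. Crtam had 0 matches for miR-23a. Cd226 had 1 match, for miR-23a at 2167 in 1 of 4 transcripts, and 0 for the others. The short 3′ regions of Tigit (134 bases) and Cd96 (216 bases) held 0 matches for all of them. Of 12800 tested genes with an annotated 3′ region, 17.1% held a match for miR-23a, 18.2% for miR-27a and 19.5% for miR-24. A match is only a match of letters.

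Totals per library ran from 15139281 to 25342991 counts, and 17457 genes passed the filter on low counts, all 4 receptors among them. Mir27a, which checks the genotype labels, had 0 counts in all 6 Mirc11-/- libraries, against 1, 0 and 4 counts in stimulated and 2, 3 and 3 counts in unstimulated wild-type libraries. Mir23a had 0 counts in every group and Mir24-2 had 1 count, in stimulated wild-type cells, so neither checks the labels. All 8 NK cell markers examined had counts in every group, with summed levels of 623 to 778 CPM (counts per 1000000 of the library's scaled total) in stimulated Mirc11-/- libraries, 1174 to 1255 in unstimulated Mirc11-/- libraries, 843 to 862 in stimulated wild-type libraries and 1040 to 1195 in unstimulated wild-type libraries. All 12 T cell markers also had counts, with sums of 349 to 396, 393 to 489, 387 to 426 and 348 to 455 CPM in the same order of groups. These sums were mostly Trbc1, which averaged 187, 216, 230 and 231 CPM in that order, and Trbc2, at 78.8, 97.9, 80.5 and 82.8 CPM. Trac averaged 14.4, 11.9, 12.9 and 8.64 CPM. Between genotypes in stimulated cells, edgeR called 1 of these 12 higher in Mirc11-/- cells (Cd8b1, log2 difference 1.83, adjusted p = 0.00614) and 1 lower (Zbtb7b, -0.42, adjusted p = 0.0115), with a median of 0.27, and in unstimulated cells it called 0, with a median of 0.37. Over all tested genes 3.89% were called higher and 5.13% lower in stimulated cells (median 0.02), and 1.11% in unstimulated cells (median 0.0076). Cd8b1 had 111 counts over the stimulated Mirc11-/- and 36 over the stimulated wild-type libraries. The log2 differences of Cd3d, Cd3e and Cd3g were 0.41, 0.79 and 0.38 in stimulated cells (edgeR adjusted p = 0.344, 0.12 and 0.316). T cells carry the same 4 receptors. The sum of dendritic cell markers, mostly Itgax, was higher in Mirc11-/- cells without overlap. It was 159 to 194 CPM in stimulated and 190.0 to 207 in unstimulated Mirc11-/- libraries, against 87.3 to 131 in stimulated and 76.5 to 129.7 in unstimulated wild-type libraries. Zbtb46 did not follow, with means of 19.3 CPM in Mirc11-/- and 21.6 CPM in wild-type stimulated cells, and 8.38 and 8.57 CPM in unstimulated cells. Xcr1 averaged 6.18 and 3.90 CPM in stimulated cells, and 3.57 and 2.92 CPM in unstimulated cells. Sums of the 5 B cell markers used, nearly all Ighm, were higher after stimulation without overlap, at 102 to 128 CPM in stimulated and 57.1 to 73.2 in unstimulated libraries, with Pax5 at 0 in unstimulated wild-type cells. So were those of other innate lymphoid cells, mostly Itga1, at 255 to 296 CPM in stimulated and 167 to 208 in unstimulated libraries. Markers of macrophages and monocytes summed to 10.9 to 15.1 CPM in stimulated and 5.17 to 9.38 in unstimulated Mirc11-/- libraries, and to 16.0 to 19.3 in stimulated and 8.90 to 11.3 in unstimulated wild-type libraries. Those of neutrophils and mast cells summed to 3.42 to 4.16 CPM in stimulated and 2.96 to 5.57 in unstimulated Mirc11-/- libraries, and to 6.20 to 8.66 in stimulated and 4.89 to 6.48 in unstimulated wild-type libraries, with S100a8, S100a9 and Mcpt4 at 0 in both unstimulated groups. The part of these cell types in the receptor levels was not tested. Counts over vomeronasal receptor genes, which lymphocytes do not use, were read as a measure of background. They summed to 49.1 to 85.4 CPM in stimulated Mirc11-/- libraries, 24.8 to 41.5 in stimulated wild-type libraries, and 13.6 to 17.4 in the unstimulated libraries of both genotypes. These ranges do not overlap. Fits with this background as a covariate therefore cannot separate it from stimulation, or from genotype in stimulated cells. Replicate 1 of each stimulated group stood apart from the other replicates of its group and had the highest background of it.

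The 4 genes lay apart from other annotated genes, with none overlapping any of them on either strand (GRCm38). Crtam (ENSMUSG00000032021) lies on chromosome 9 at 40969691 to 41004628, minus strand, and Cd226 (ENSMUSG00000034028) on chromosome 18 at 89176967 to 89272229, plus strand. Tigit (ENSMUSG00000071552) lies on chromosome 16 at 43648867 to 43664146 and Cd96 (ENSMUSG00000022657) on the same chromosome at 46035657 to 46120251, both on the minus strand. Of the stretches of 31 bases in their transcripts, 0% of Crtam's and Cd96's, 0.0999% of Cd226's and 7.58% of Tigit's also occurred in transcripts of other genes.

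Crtam was the receptor with the wide range. It had 123, 158 and 125 CPM in stimulated Mirc11-/- libraries and 7.84, 11.5 and 8.73 CPM in unstimulated Mirc11-/- libraries. In wild-type cells it had 151, 218 and 220.1 CPM after stimulation and 8.24, 6.81 and 10.6 CPM without it. Every stimulated library stood above every unstimulated library by a wide margin, in both genotypes. The log2 difference between stimulated and unstimulated cells was 3.86 ± 0.21 (SE) in Mirc11-/- cells, a 14.5-fold higher level, and 4.51 ± 0.22 in wild-type cells, a 22.8-fold higher level. Ranked from the largest rise, Crtam stood at position 274 of 17457 genes in Mirc11-/- cells and at 115 in wild-type cells. These differences are the reason the gene was chosen. In bulk RNA, more cells that carry a transcript and more transcript per cell cannot be told apart.

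Cd226, the activating receptor of the pair that shares ligands with Tigit, ran the other way. It had 9.91, 7.17 and 7.25 CPM in stimulated Mirc11-/- libraries and 15.6, 13.7 and 13.8 CPM in unstimulated ones. Wild-type libraries held 7.92, 6.12 and 4.72 CPM after stimulation and 11.1, 12.3 and 8.82 CPM without it. All stimulated libraries of a genotype lay below all unstimulated libraries of that genotype. The log2 difference was -0.82 ± 0.19 (SE) in Mirc11-/- cells and -0.77 ± 0.19 in wild-type cells, values that lie within 1 SE of each other.

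Tigit, the inhibitory receptor for the same ligands, was lower after stimulation without overlap in wild-type cells. Stimulated Mirc11-/- libraries had 22.5, 14.4 and 14.3 CPM, and unstimulated Mirc11-/- libraries had 22.4, 19.0 and 17.3 CPM. Stimulated wild-type libraries had 10.6, 11 and 12.5 CPM, and unstimulated wild-type libraries had 22.1, 16.9 and 23.6 CPM. The groups overlapped in Mirc11-/- cells, where replicate 1 of the stimulated cells was as high as the highest unstimulated library. The log2 difference was -0.20 ± 0.18 (SE) in Mirc11-/- cells and -0.88 ± 0.18 in wild-type cells. With replicate 1 of both stimulated groups left out, a step chosen after seeing the data, the differences were -0.44 in Mirc11-/- and -0.83 in wild-type cells.

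Cd96 was the most abundant of the 4 per kilobase in every group, and its mean was higher after stimulation in both genotypes. It had 109, 142 and 141 CPM in stimulated Mirc11-/- libraries and 108, 116 and 112 CPM in unstimulated ones. Wild-type cells held 142, 139 and 149 CPM after stimulation, against 99.7, 102 and 90.1 CPM without it. Stimulated and unstimulated libraries overlapped in Mirc11-/- cells, through replicate 1 of the stimulated group, and were separate in wild-type cells. The log2 difference was 0.22 ± 0.10 (SE) in Mirc11-/- cells and 0.56 ± 0.10 in wild-type cells. Without replicate 1 of both stimulated groups these were 0.34 and 0.56.

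Across the receptors, stimulated and unstimulated libraries did not overlap for 2 of 4 in Mirc11-/- cells, where 54.0% of all tested genes did not overlap, and for 4 of 4 in wild-type cells, where the share was 49.0%. Because the set was chosen on this contrast, nothing is read from the counts. With the background level of vomeronasal receptor reads as a covariate, every one of the 8 differences was larger in size, at 4.55 (Crtam), -1.76 (Cd226), -0.95 (Tigit) and 0.75 (Cd96) log2 in Mirc11-/- cells and 4.84, -1.26, -1.24 and 0.83 log2, in the same order of genes, in wild-type cells. The background did not overlap between stimulated and unstimulated libraries, so this fit cannot separate it from stimulation.

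**Figure D1:**
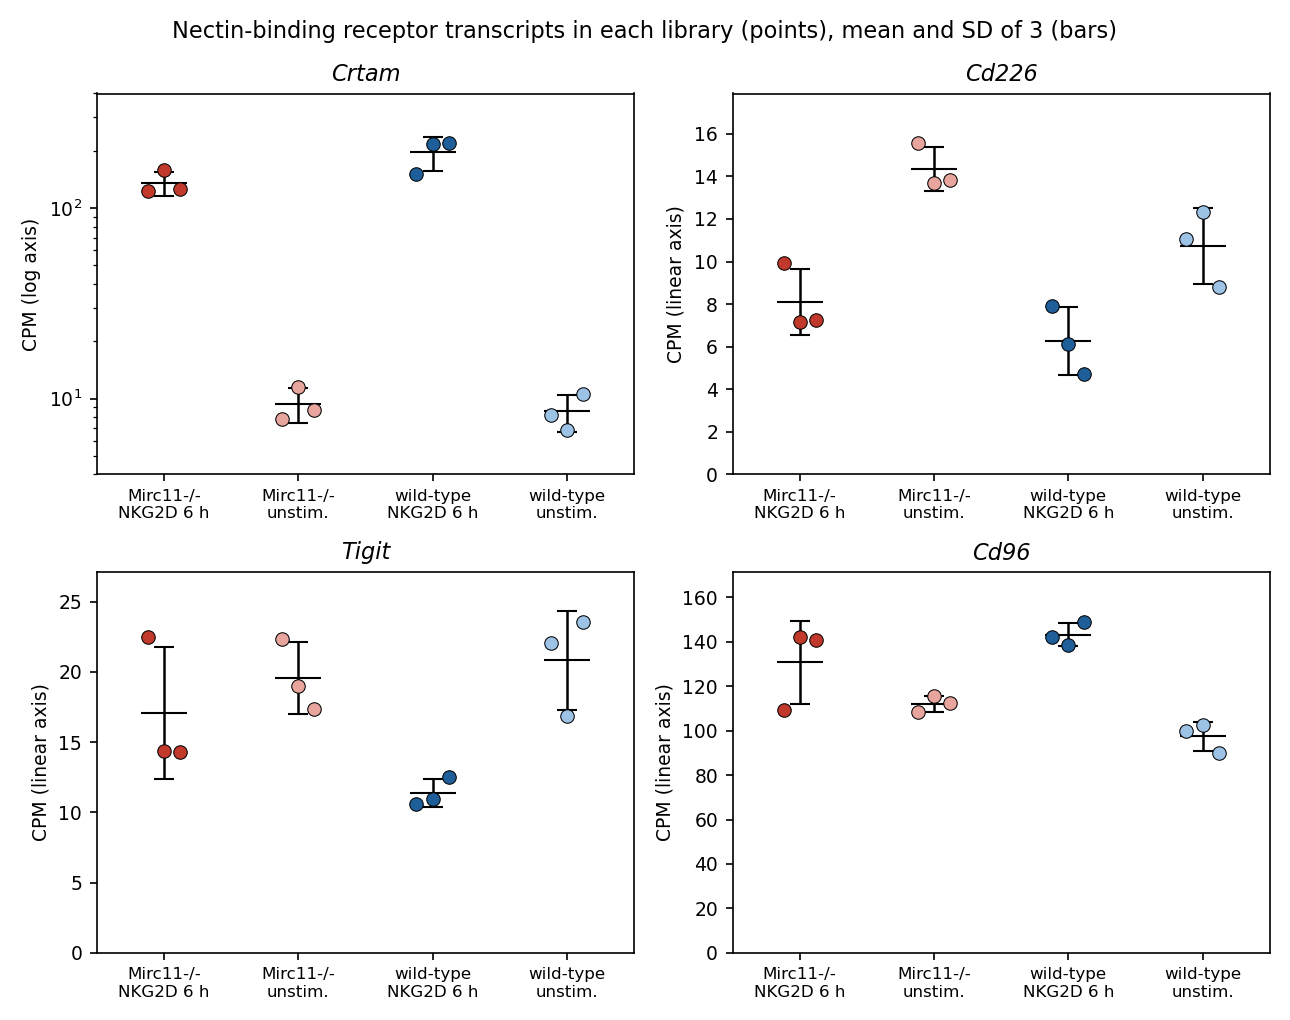
Levels of the 4 receptor transcripts in CPM, 1 point per library, with the mean and SD of 3 libraries as bars. The Crtam axis is logarithmic and the others are linear from 0. All 6 stimulated libraries had at least 123 CPM of Crtam and all 6 unstimulated libraries at most 11.5 CPM.

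Levels of different genes were compared per kilobase of exon. In stimulated Mirc11-/- cells the order was Cd96 (59.9 ± 8.59 CPM per kilobase; SD, n = 3), Crtam (26.4 ± 3.85), Tigit (18.6 ± 5.11) and Cd226 (1.66 ± 0.32). Stimulated wild-type cells had the same order, with 65.6 ± 2.41 for Cd96, 38.2 ± 7.69 for Crtam, 12.4 ± 1.12 for Tigit and 1.28 ± 0.327 for Cd226. Crtam moved to the last place without stimulation, at 1.83 ± 0.377 in Mirc11-/- and 1.67 ± 0.375 in wild-type cells. Unstimulated Mirc11-/- cells had 51.3 ± 1.64 for Cd96, 21.3 ± 2.78 for Tigit and 2.94 ± 0.214 for Cd226, and unstimulated wild-type cells had 44.6 ± 2.98, 22.7 ± 3.83 and 2.19 ± 0.361 for the same genes. The neighbours in these orders whose means lay within the sum of their SDs were Crtam and Tigit in stimulated Mirc11-/- cells and Cd226 and Crtam in unstimulated wild-type cells.

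In stimulated cells the genotypes differed in opposite directions for Crtam and Tigit, but 0 of the 4 receptors passed the adjusted test. The test was edgeR's quasi-likelihood test with Benjamini-Hochberg adjustment over all 17457 genes and a threshold of 0.05, and it called 9.02% of all genes in this comparison. Crtam averaged 136 ± 19.8 CPM in stimulated Mirc11-/- cells and 196 ± 39.4 CPM in stimulated wild-type cells (SD, n = 3 each). The log2 difference was -0.53 ± 0.18 (SE; 95% interval -0.95 to -0.11), a 1.45-fold lower level, with adjusted p = 0.0807, and replicate 2 of the Mirc11-/- cells lay above replicate 1 of the wild-type cells. Tigit averaged 17.1 ± 4.70 CPM in stimulated Mirc11-/- cells and 11.4 ± 1.03 CPM in stimulated wild-type cells. All 3 stimulated Mirc11-/- libraries lay above all 3 stimulated wild-type libraries, and the log2 difference was 0.59 ± 0.18 (95% interval 0.17 to 1.0; adjusted p = 0.0566). Of all genes tested, 15.8% were higher in this comparison without overlap.

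The calls for Crtam and Tigit in stimulated cells hung on single libraries and on the tool. At an unadjusted p under 0.05, 2 of the 4 receptors passed with edgeR, as did 30.1% of all genes, and limma voom called 0 after adjustment, whereas the DESeq2 Wald test called these 2 (adjusted p = 0.0318 for Crtam and 0.0278 for Tigit). Crtam passed without replicate 2 of stimulated Mirc11-/- cells (edgeR adjusted p = 0.0484) and without replicate 1 of stimulated wild-type cells (adjusted p = 0.0245). Tigit passed with no filter on low counts (0.49, adjusted p = 0.0310), without replicate 2 (adjusted p = 0.0352) or replicate 3 (adjusted p = 0.0475) of stimulated Mirc11-/- cells, and without replicate 1 of that group its log2 difference was 0.34 (adjusted p = 0.220). Without replicate 1 of both stimulated groups the differences were -0.63 for Crtam (adjusted p = 0.0876) and 0.29 for Tigit (adjusted p = 0.310). With the vomeronasal background as a covariate the log2 differences were -0.15 for Crtam (adjusted p = 0.982) and 0.17 for Tigit (adjusted p = 0.974), in a fit that called 30 genes. The background did not overlap between the stimulated groups of the genotypes, so this fit cannot separate it from genotype.

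Cd226 and Cd96 showed smaller genotype differences in stimulated cells. Cd226 averaged 8.11 ± 1.56 CPM in stimulated Mirc11-/- cells and 6.25 ± 1.60 CPM in stimulated wild-type cells, a log2 difference of 0.37 ± 0.19 (SE; 95% interval -0.07 to 0.82; edgeR adjusted p = 0.2095). Cd96 averaged 131 ± 18.8 CPM in stimulated Mirc11-/- cells and 143 ± 5.26 CPM in stimulated wild-type cells, with a log2 difference of -0.13 ± 0.10 (95% interval -0.36 to 0.10; adjusted p = 0.373). Libraries of the genotypes overlapped for both genes.

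Before stimulation, 0 of the 4 receptors passed edgeR's adjusted test between genotypes, in a comparison that called 1.11% of all genes. Cd226 averaged 14.4 ± 1.05 CPM in unstimulated Mirc11-/- cells and 10.7 ± 1.77 CPM in unstimulated wild-type cells (log2 difference 0.42 ± 0.18, adjusted p = 0.481). Cd96 averaged 112 ± 3.59 CPM in unstimulated Mirc11-/- cells and 97.4 ± 6.5 CPM in unstimulated wild-type cells (log2 difference 0.20 ± 0.10, adjusted p = 0.591). For these 2 genes every unstimulated Mirc11-/- library lay above every unstimulated wild-type library, as did 8.87% of all genes. Crtam differed by 0.12 ± 0.21 log2 (95% interval -0.37 to 0.60) and Tigit by -0.09 ± 0.17 log2 (95% interval -0.50 to 0.31), with overlapping libraries. The unadjusted p was under 0.05 for 1 receptor, Cd226, and for 9.21% of all genes, and DESeq2 and limma voom also called 0.

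Averaged over both treatments, 0 of the 4 receptors passed edgeR's adjusted test between genotypes. The Cd226 log2 difference between Mirc11-/- and wild-type cells was 0.40 ± 0.13 (SE; 95% interval 0.09 to 0.70), a 1.32-fold higher level, with edgeR adjusted p = 0.0868, in a comparison that called 7.36% of all genes. Without replicate 1 of stimulated wild-type cells it was 0.50 (adjusted p = 0.0330), and without replicate 1 of both stimulated groups 0.41 (adjusted p = 0.0319). The averages for Tigit (0.25 ± 0.13, adjusted p = 0.241), Crtam (-0.21 ± 0.14, adjusted p = 0.370) and Cd96 (0.04 ± 0.07, adjusted p = 0.779) also missed the threshold. With the vomeronasal background as a covariate the averages were 0.14 for Cd226 (adjusted p = 0.842), 0.18 for Cd96 (adjusted p = 0.489), 0.03 for Tigit (adjusted p = 0.980) and -0.0054 for Crtam (adjusted p = 0.999). DESeq2 and limma voom also called 0 of 4, and 1 receptor, Cd226, had an unadjusted p under 0.05 with edgeR, as did 25.1% of all genes.

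**Figure D2:**
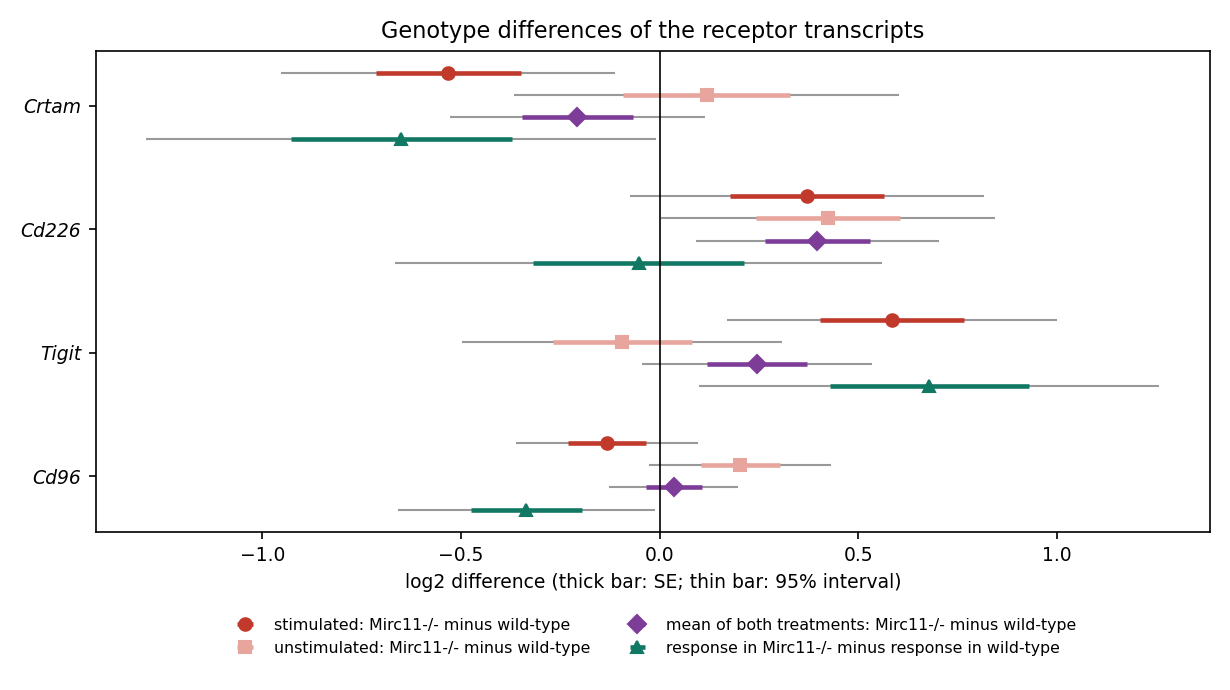
Log2 differences of the receptor transcripts between Mirc11-/- and wild-type cells in stimulated cells, in unstimulated cells and averaged over both, and the difference between the stimulation responses of the genotypes. Thick bars are the SE from the edgeR fit. Thin bars are the 95% interval, taken from that SE and a t quantile with 8 degrees of freedom. The stimulated-cell points lie at -0.53 for Crtam and 0.59 for Tigit, and those of the averaged comparison lie between -0.21 and 0.40.

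The stimulation response was smaller in size in Mirc11-/- than in wild-type cells for Crtam, Tigit and Cd96, and none of these differences passed the adjusted test. The response of Mirc11-/- cells minus that of wild-type cells was -0.65 ± 0.28 log2 (SE) for Crtam (edgeR adjusted p = 0.455), 0.68 ± 0.25 for Tigit (adjusted p = 0.445) and -0.34 ± 0.14 for Cd96 (adjusted p = 0.448). For Cd226 the difference was -0.05 ± 0.27 (95% interval -0.67 to 0.56). The Crtam value is made of the stimulation differences for which that gene was chosen, so its p is not an independent test. This comparison called 2 genes, 0.0115% of those tested. Crtam is left out of the unadjusted count, since its p is not independent. Of the other receptors, Tigit and Cd96 had an unadjusted p under 0.05 with edgeR and Cd226 did not, where 10.6% of all genes did. After adjustment 0 of the 4 receptors passed with edgeR, DESeq2 or limma voom. With replicate 1 of both stimulated groups left out the differences were 0.39 for Tigit and -0.22 for Cd96. These are the receptors for which replicate 1 of stimulated Mirc11-/- cells overlapped the unstimulated libraries. The values of Crtam and Cd226 in that fit are not given here. With the vomeronasal background as a covariate the differences were -0.28 for Crtam, 0.29 for Tigit, -0.08 for Cd96 and -0.50 for Cd226, in a fit that called 0 genes.

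Ratios between the receptors within a library do not depend on the library's total. They were added after the levels had been seen. The count of Tigit per count of Cd226 was 2.27, 2.01 and 1.98 in stimulated Mirc11-/- libraries and 1.34, 1.79 and 2.66 in stimulated wild-type libraries. It was 1.44, 1.39 and 1.25 in unstimulated Mirc11-/- libraries and 1.99, 1.37 and 2.67 in unstimulated wild-type libraries. In stimulated cells all 3 Mirc11-/- values lay within the range of the wild-type values, and in unstimulated cells the ranges overlapped. The count of Cd96 per count of Cd226 had a geometric mean of 16.2 in stimulated Mirc11-/- and 23.4 in stimulated wild-type libraries, and 7.82 in unstimulated Mirc11-/- and 9.15 in unstimulated wild-type libraries. For Crtam per Cd226 the geometric means were 16.8 in stimulated Mirc11-/- and 31.6 in stimulated wild-type libraries, and 0.645 in unstimulated Mirc11-/- and 0.792 in unstimulated wild-type libraries. In exact two-sided permutation tests between genotypes, 3 libraries against 3, the lowest p of 6 tests was 0.2 (adjusted p = 0.45), where the design allows no p below 0.1.

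**Figure D3:**
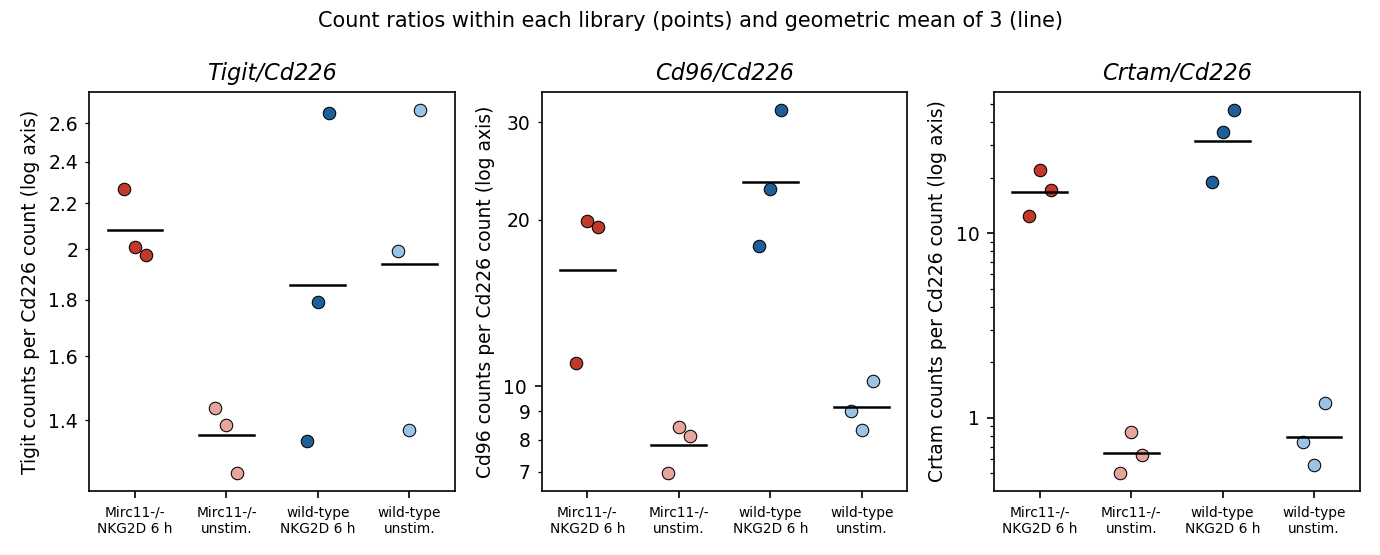
Counts of Tigit, Cd96 and Crtam per count of Cd226 in each library, on logarithmic axes, with the geometric mean of 3 libraries as a line. Crtam per Cd226 was 12.4 to 22.1 in stimulated Mirc11-/- libraries and 19.0 to 46.6 in stimulated wild-type libraries, with overlap between the genotypes.

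Over the 12 libraries, the log2 levels of the receptors fell into pairs that moved together. Pearson's r was 0.84 between Crtam and Cd96 and 0.68 between Cd226 and Tigit, and between members of different pairs it ran from -0.88 (Tigit and Cd96) to -0.70 (Cd226 and Cd96). The libraries share the treatment and genotype groups, so these values describe the same group differences again.

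The genes whose log2 levels were most like each receptor over the 12 libraries were taken from 9698 named genes whose log2 CPM averaged 2 or more. For Crtam they were Ccl1, a chemokine (r = 0.998), Tagap, a GTPase-activating protein of activated lymphocytes (0.996), Stat5a, which carries IL-2 receptor signals (0.996), Hid1 (0.990) and Xcl1, the chemokine lymphotactin (0.990). Ccl1 averaged 109 CPM in stimulated and 3.19 CPM in unstimulated Mirc11-/- cells, against 241 CPM in stimulated and 2.79 CPM in unstimulated wild-type cells. Hid1 tracked Crtam with a far smaller range, at 7.09 CPM in stimulated and 3.57 CPM in unstimulated Mirc11-/- cells. For Cd226 they were Samhd1, a nucleotide-cleaving enzyme (0.941), the guanylate-binding protein Gbp8 (0.939), Smad3, a transducer of TGF-beta signals (0.938), the zinc finger gene Zfp951 (0.938) and the adaptor Grap2 (0.936).

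For Tigit the closest genes were Pde4a, a cyclic AMP phosphodiesterase (0.975), Gatad2b, a subunit of a chromatin remodelling complex (0.967), Srrm2, a splicing factor (0.962), Tbc1d15 (0.961) and Eif4ebp2, a repressor of translation initiation (0.959). Like Tigit, all of them averaged less in stimulated wild-type cells than in the other 3 groups, as with Gatad2b at 58.8 CPM in stimulated and 62.4 CPM in unstimulated Mirc11-/- cells, and 46.2 CPM in stimulated and 64.8 CPM in unstimulated wild-type cells. For Cd96 they were Ociad1 (0.972), the histone variant gene H2afv (0.962), Tmco6 (0.962), Tuft1 (0.961) and Lactb (0.960).

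**Figure D4:**
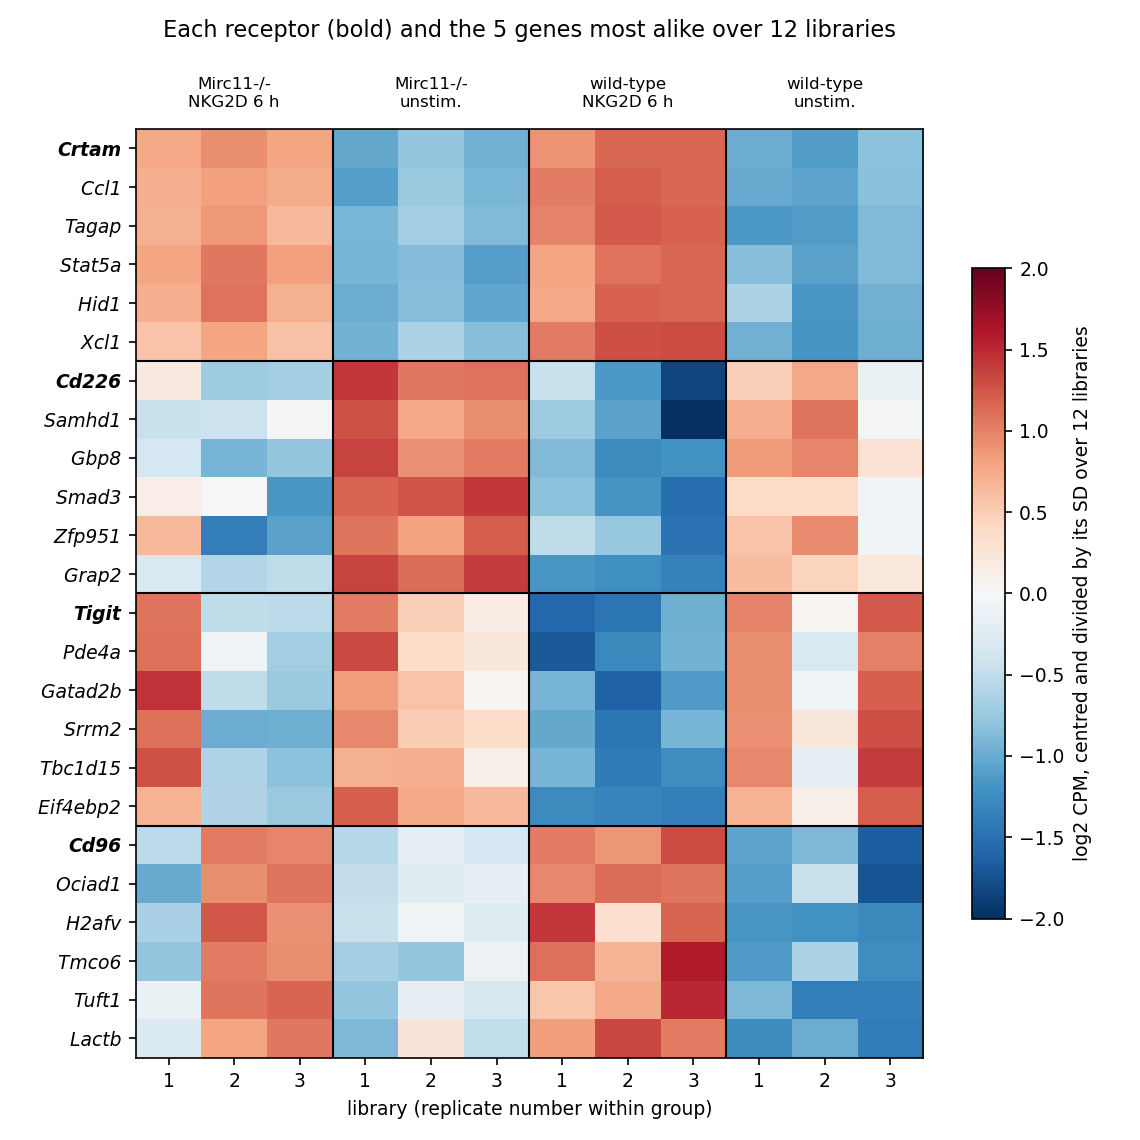
Log2 CPM of each receptor and of the 5 genes most like it over the 12 libraries, centred and divided by the SD of the gene over the libraries (colour scale in SD units). Columns are libraries by group and rows are genes. The Tigit block is above its mean in replicate 1 of stimulated Mirc11-/- cells and below it in all 3 stimulated wild-type libraries, and the Cd96 block shows the opposite.

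Of the ligands and partners of the receptors, Pvr was the ligand with more than trace levels. Pvr, bound by Cd226, Tigit and Cd96, had 12.8, 16.5 and 13.4 CPM in stimulated Mirc11-/- libraries and 18.1, 12.8 and 18.1 CPM in stimulated wild-type libraries. Unstimulated libraries held 17.8, 13.7 and 16.2 CPM in Mirc11-/- and 15.4, 17.9 and 14.3 CPM in wild-type cells. All groups overlapped, and Pvr passed edgeR's adjusted test in 0 of the 6 comparisons (log2 difference between genotypes in stimulated cells -0.20 ± 0.15, adjusted p = 0.383). Pvrig, a further inhibitory receptor, which binds Nectin2, averaged 30.6 ± 3.06 CPM in stimulated and 30.3 ± 1.40 CPM in unstimulated Mirc11-/- cells, against 26.2 ± 3.42 CPM in stimulated and 26.7 ± 2.04 CPM in unstimulated wild-type cells (SD, n = 3 each). It passed in 0 comparisons (averaged genotype difference 0.20 ± 0.08 log2, adjusted p = 0.122).

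Afdn was the member of this list that differed between genotypes. It had 16.6, 14.2 and 14.4 CPM in stimulated Mirc11-/- libraries and 7.5, 7.09 and 8.33 CPM in stimulated wild-type libraries. In unstimulated cells it had 11, 13.1 and 12.5 CPM in Mirc11-/- and 9.30, 8.74 and 8.54 CPM in wild-type libraries. Every Mirc11-/- library lay above every wild-type library of either treatment. The log2 difference was 0.98 ± 0.11 (SE) in stimulated cells (edgeR adjusted p = 0.000395), 0.46 ± 0.11 in unstimulated cells (adjusted p = 0.0873) and 0.72 ± 0.08 averaged over both (adjusted p = 0.00013). With the vomeronasal background as a covariate, 0 of the list's genes were called in stimulated cells and 1 in the averaged comparison.

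The remaining ligands were at trace levels. Cadm1, the ligand of Crtam, had 29 counts over the stimulated Mirc11-/- libraries and 1 over the unstimulated ones, and 17 over the stimulated wild-type libraries and 1 over the unstimulated ones. Together with Nectin2, Cadm2 and Cadm4 it did not pass the filter, which left 7 of 11 genes, with median log2 differences of 0.59 between genotypes in stimulated cells, 0.31 with stimulation in Mirc11-/- cells and 0.29 with stimulation in wild-type cells. Nectin1, Nectin3, Nectin4 and Cadm3 averaged 0.0134 to 0.901 CPM over the groups. In stimulated against unstimulated Mirc11-/- cells, edgeR called Cadm3, Nectin1, Nectin3 and Afdn higher and 0 lower (adjusted p = 0.038 for Afdn). In wild-type cells it called Cadm3 alone. The shares of all genes called were 45.6% (23.5% higher, 22.1% lower) in Mirc11-/- and 31.8% (16.1% higher, 15.7% lower) in wild-type cells. Cadm3 had 36 and 2 counts over the stimulated and unstimulated Mirc11-/- libraries, and 19 and 1 over the wild-type ones. Nectin1 had 27 and 4 and Nectin3 47 and 12 counts over the stimulated and unstimulated Mirc11-/- libraries. Cadm3, Nectin1 and Nectin3 passed the filter only through stimulated libraries. Their calls and the list's medians with stimulation are therefore not independent of the filter, and nothing is read from them. The vomeronasal background was also higher in the stimulated libraries. With it as a covariate, or without replicate 1 of both stimulated groups, 0 of the list's genes were called in either genotype.

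**Figure D5:**
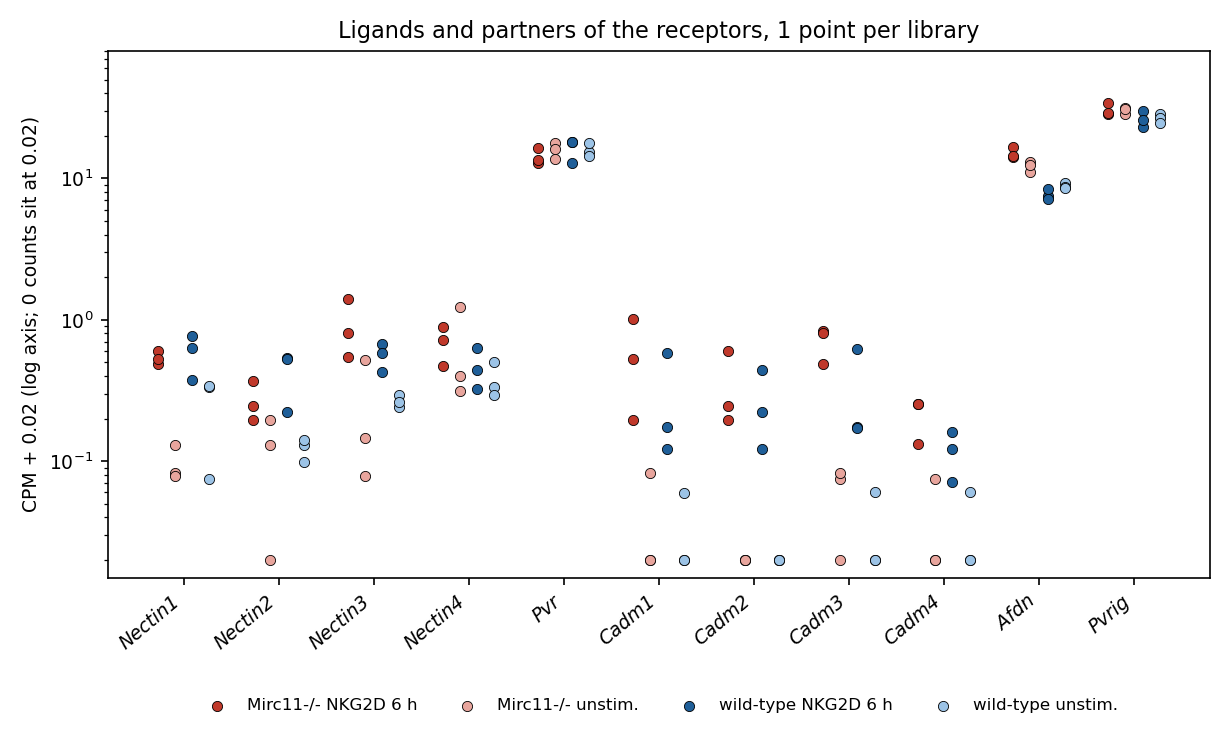
Levels of the 11 ligands and partners in CPM with 0.02 added, on a logarithmic axis, 1 point per library, coloured by group. Pvr, Afdn and Pvrig lie above 7 CPM in every library, while the nectins and Cadm genes lie below 1.4 CPM.

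Signalling proteins known to act below these receptors were all measured, 20 of 20. Between genotypes in stimulated cells, 1 was higher and 2 were lower (3.89% of all genes were called higher and 5.13% lower), with a median log2 difference of -0.04, against 0.02 over all tested genes. Itgb2, the beta chain of the integrin LFA-1 with which Cd226 associates, averaged 145 ± 10.6 CPM in stimulated Mirc11-/- cells and 247 ± 10.2 CPM in stimulated wild-type cells (log2 difference -0.76 ± 0.09, edgeR adjusted p = 0.000485). Plcg2, a phospholipase, was lower by a log2 difference of -0.30 ± 0.08 (adjusted p = 0.0365). Pard3, a polarity protein, was the gene called higher, at a low level. It averaged 1.09 CPM in stimulated Mirc11-/- and 0.493 CPM in stimulated wild-type cells, from 57 and 30 counts. It passed the filter only through the stimulated Mirc11-/- libraries, so its call is not independent of the filter. The vomeronasal background also differed between these groups without overlap, and its part in these genotype differences was not tested. The fit with it as a covariate called 30 of all genes in this comparison.

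On stimulation, 3 of these 20 proteins' genes rose and 13 fell in Mirc11-/- cells, and 3 rose and 8 fell in wild-type cells. Those that rose in Mirc11-/- cells include Pard3, which passed the filter only through the stimulated libraries of that genotype. The median log2 differences were -0.27 in Mirc11-/- and -0.10 in wild-type cells, against 0.03 and 0.02 over all tested genes, where the shares called were 23.5% higher and 22.1% lower in Mirc11-/- cells and 16.1% higher and 15.7% lower in wild-type cells. Vav3, a nucleotide exchange factor, fell by 0.74 in Mirc11-/- and by 0.74 in wild-type cells on the log2 scale, and Pik3cd, a lymphocyte PI3-kinase subunit, by 0.96 and 0.89 in the same order. The kinase gene Prkcq fell by 0.58 and 0.62, and Itgb2 by 1.21 and 0.80. The comparisons of both genotypes have no library in common.

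Transcription factors of cytotoxic lymphocytes were likewise all measured, 15 of 15. In stimulated cells 0 were higher and 4 were lower in Mirc11-/- than in wild-type cells, with a median log2 difference of -0.08, where 3.89% of all genes were called higher and 5.13% lower. Irf4, induced by antigen-receptor and related signals, averaged 29.6 ± 3.96 CPM in stimulated Mirc11-/- and 56.3 ± 7.22 CPM in stimulated wild-type cells (log2 difference -0.93 ± 0.13, edgeR adjusted p = 0.00162). Eomes, a T-box factor of NK and cytotoxic T cells, averaged 116 ± 10.2 and 169 ± 9.80 CPM in the same groups (-0.55 ± 0.08, adjusted p = 0.00266). Id2, needed for NK cell development, and Prdm1, encoding Blimp-1, differed by -0.82 ± 0.15 (adjusted p = 0.00618) and -0.92 ± 0.23 (adjusted p = 0.0344). The vomeronasal background also differed between these stimulated groups without overlap, and its part in these genotype differences was not tested. The fit with it as a covariate called 30 of all genes in this comparison. On stimulation, 5 of the 15 rose and 6 fell in Mirc11-/- cells, and 5 rose and 4 fell in wild-type cells, with median log2 differences of -0.0036 and -0.06. Over all genes 23.5% rose and 22.1% fell in Mirc11-/- cells, and 16.1% rose and 15.7% fell in wild-type cells. Among those that rose were Tcf7 (3.75 log2 in Mirc11-/- and 2.91 in wild-type cells), Irf4 (1.62 and 2.76) and Zeb2 (0.99 and 1.0).

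Between genotypes in unstimulated cells, edgeR called 0 genes of the ligand, signalling and transcription factor lists, where 2 of 7, 5 of 20 and 1 of 15 had an unadjusted p under 0.05, against 9.21% of all genes. DESeq2 called 1 ligand or partner and 1 signalling gene there, and limma voom 0. For the difference between the responses edgeR and limma voom called 0 in each list, with 1 of 7, 4 of 20 and 5 of 15 unadjusted p under 0.05 by edgeR, against 10.6% of all genes, and DESeq2 called 2 transcription factors and 0 of the others.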

How the data were processed

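Polyadenylated RNA of 12 libraries was sequenced after Trizol extraction and TruSeq preparation, per the labels' protocols. The authors deposited RSEM expected counts per gene, all of them whole numbers; the submitters' processing notes name GRCm38 and the tools RSEM 1.3.0, Bowtie2 2.2.8, Trim Galore 0.4.1 and bcl2fastq. For the annotation release and strand setting, no value was given in the sources used here. Totals were 15139281 to 25342991 counts; counting error and the spread between replicates set the precision.

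Genes were filtered with filterByExpr, scaled by TMM and tested in edgeR 4.0.16 under R 4.3.3 (quasi-likelihood, robust), with 1 mean per group over all 12 libraries; p values are two-sided and adjusted by Benjamini-Hochberg over 17457 genes. CPM uses TMM-scaled totals, and lengths and 3′ regions come from GENCODE vM21. Intervals of 95% use the SE and a t quantile with 8 degrees of freedom, so they need not match edgeR's p values. Alternatives were no composition factor, size factors from DESeq2, no filter, a stricter one (1 CPM), the Wald test of DESeq2 1.42.0, limma 3.58.1 voom, a non-robust fit, replicate blocks, the vomeronasal covariate and leaving out libraries. The fit was tested on simulated counts.

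The 4 receptors, the gene lists and the markers were chosen with earlier results of these data known. Named were the receptors, the ligand list, up to 4 genes per other list and comparison with the smallest adjusted p, the 5 genes most like each receptor, neighbours within 250 kb that passed, Klrk1, the microRNA genes and markers; not all are printed, and 1 marker is not reported here or counted in its list's sum. The labels do not say whether libraries with the same replicate number share anything besides that number.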

Additional observations from a re-analysis of the deposited data

How the results depend on the processing

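Of the alternatives in processing, the following changed a side of the threshold or a direction; the cause was not tested. Between genotypes in stimulated cells, Crtam (-0.53) passed with DESeq2 (-0.54, adjusted p = 0.0318). Tigit (0.59) passed with no filter (0.49, adjusted p = 0.0310), with DESeq2 (0.58, adjusted p = 0.0278) and with the replicate block (0.56, adjusted p = 0.0421). Averaged over treatments, Cd226 (0.40) passed with the replicate block (0.41, adjusted p = 0.0336) and without replicate 1 of both stimulated groups (0.41, adjusted p = 0.0319); the block changed no other receptor's call. Same-numbered libraries had correlated deviations of -0.18 to 0.23, with 6 of 18 pairs over 0.1. With the vomeronasal covariate, Cd226 and Cd96 in stimulated cells turned to -0.11 and 0.14, and the stimulation differences were 4.55, -1.76, -0.95 and 0.75 (Crtam, Cd226, Tigit, Cd96) in Mirc11-/- and 4.84, -1.26, -1.24 and 0.83 in wild-type cells. The averaged Cd96 difference was -0.016 with no filter, and Cd226's difference between responses was 0.018 with no composition factor. Scaling alternatives moved the median of all genes by less than 0.1 log2.

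Leaving out single libraries gave the following log2 ranges for Crtam, Cd226, Tigit and Cd96. Between genotypes they were -0.70 to -0.45, 0.20 to 0.57, 0.34 to 0.69 and -0.21 to -0.02 in stimulated cells, -0.056 to 0.30, 0.30 to 0.53, -0.22 to 0.0031 and 0.15 to 0.24 in unstimulated cells, and -0.30 to -0.12, 0.31 to 0.50, 0.12 to 0.30 and -0.0012 to 0.088 averaged. The difference between responses ranged from -0.84 to -0.48, -0.22 to 0.15, 0.44 to 0.80 and -0.41 to -0.21. Stimulation gave 3.72 to 4.02, -0.99 to -0.76, -0.44 to -0.09 and 0.14 to 0.34 in Mirc11-/- cells, and 4.37 to 4.69, -0.99 to -0.62, -1.01 to -0.79 and 0.49 to 0.59 in wild-type cells.

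Ligands called numbered 1 in stimulated cells (0 with the covariate) and 0 in unstimulated cells (1 with DESeq2 and without both replicates 1; 0 to 1 leaving out libraries). On stimulation in Mirc11-/- cells 4 became 1 with the stricter filter, 0 with the covariate, 0 without both replicates 1 and 2 to 5 leaving out libraries, and in wild-type cells 1 became 3 with no filter, 0 with the stricter filter, 0 with the covariate, 0 without both replicates 1 and 0 to 2. Cadm3, Nectin1 and Nectin3 passed the main filter only through stimulated libraries, so these stimulation counts are not independent of it. Of all genes, 1575 were called between genotypes in stimulated cells (2366 with DESeq2, 30 with the covariate, 337 to 2397 leaving out libraries), 193 in unstimulated cells (382 with DESeq2, 376 without both replicates 1, 72 to 404), 1285 averaged (170 with the covariate, 680 to 1491) and 2 for the difference between responses (47 with no filter, 68 with DESeq2, 13 with the block within genotype, 79 without both replicates 1, 0 with the covariate, 0 to 19). The stimulation difference in Mirc11-/- cells called 7958 (560 with the covariate). Depth limits mainly the nectin and Cadm genes.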

Other observations

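Genes beside the receptors gave values of their own (edgeR adjusted p, GRCm38). Over all tested genes, stimulation called 45.6% in Mirc11-/- and 31.8% in wild-type cells. The part of background reads in these neighbours was not tested. Ubash3b, which encodes a phosphatase that dampens antigen-receptor signalling, lies 6470 bases from Crtam on chromosome 9 (41011098 to 41161697). It fell by 0.32 on the log2 scale with stimulation in Mirc11-/- cells (adjusted p = 0.00959), with -0.06 in wild-type cells (adjusted p = 0.625). It was lower in stimulated Mirc11-/- than in stimulated wild-type cells, with a log2 difference of -0.40 (adjusted p = 0.0181). The noncoding RNA 1700063D05Rik, 187818 bases from Crtam, was higher in stimulated Mirc11-/- than in stimulated wild-type cells by 1.22 log2 (adjusted p = 0.00497). It rose with stimulation in Mirc11-/- cells by 1.16 (adjusted p = 0.000643), with 0.34 in wild-type cells (adjusted p = 0.259). Gm48710, 224254 bases away, rose in Mirc11-/- cells by 1.22 (adjusted p = 0.00189), with 0.44 in wild-type cells (adjusted p = 0.194). Of the 5 genes tested within 250 kb of Crtam, 1 was higher and 1 was lower between genotypes in stimulated cells. In that comparison 3.89% of all genes were called higher and 5.13% lower, and Crtam itself had a log2 difference of -0.53 and adjusted p = 0.0807.

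Dok6, an adaptor gene 20195 bases from Cd226 on chromosome 18, rose with stimulation by 2.92 log2 in Mirc11-/- cells (adjusted p = 0.000165) and by 1.73 in wild-type cells (adjusted p = 0.0117), while Cd226 was lower after stimulation in both. Dok6 was also higher in stimulated Mirc11-/- than in stimulated wild-type cells, by 1.48 log2 (adjusted p = 0.0341). Socs6, a suppressor of cytokine signalling 249486 bases from Cd226, fell by 0.36 on the log2 scale in wild-type cells (adjusted p = 0.0237), with -0.12 in Mirc11-/- cells (adjusted p = 0.390). Rttn, on the side of Cd226 away from Dok6, had log2 differences with stimulation of 0.11 in Mirc11-/- cells (adjusted p = 0.323) and -0.02 in wild-type cells (adjusted p = 0.894). Zbtb20, a zinc finger repressor 6265 bases from Tigit, rose in Mirc11-/- cells by 0.56 log2 (adjusted p = 0.00209), with 0.33 in wild-type cells (adjusted p = 0.0518). Qtrt2, a subunit of a tRNA-modifying enzyme 197261 bases from Tigit, was lower in stimulated Mirc11-/- than in stimulated wild-type cells by a log2 difference of -0.45 (adjusted p = 0.0393). Qtrt2 also fell by 0.59 on the log2 scale with stimulation in Mirc11-/- cells (adjusted p = 0.00165), with 0.06 in wild-type cells (adjusted p = 0.745). Near Cd96, the gene Gm4737 fell by 0.73 on the log2 scale in Mirc11-/- cells (adjusted p = 0.000162) and by 0.65 in wild-type cells (adjusted p = 0.000569), while Cd96 was higher after stimulation in both. Phldb2 rose by 1.89 log2 in Mirc11-/- (adjusted p = 0.0217) and by 2.23 in wild-type cells (adjusted p = 0.0212), and Plcxd2 rose in Mirc11-/- cells by 0.34 (adjusted p = 0.0129), with 0.19 in wild-type cells (adjusted p = 0.162).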
